A study of Danio rerio with 33 samples.

Results

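The interferon-induced antiviral genes of zebrafish described here, in embryos exposed to extracts of city air filters and in their controls, are mxa, mxb, mxc, mxe, rsad2, isg15, stat1a, stat1b, irf7 and stat2. They are 10 of the 25432 genes in the deposited count table, picked by gene name, and the choice was made with their levels in the control pools in view. In 3 control pools (mock filter 2, mock filter 3 and vehicle 3) most of them were high, so their levels in the controls are given as a description with no test. The name of the group held for these 3 pools in part. mxa, mxc, mxe, isg15, stat1a, stat1b, irf7 and stat2 stood among their highest 6 of the 33 libraries in each of the 3 pools. rsad2 did so only in vehicle 3 (rank 3, against 21 and 8 in mock filter 2 and 3). mxb did so only in mock filter 3 (rank 1, against 8 in mock filter 2 and 13 in vehicle 3).

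Interferons are secreted proteins that vertebrate cells release on sensing viral nucleic acid, and they act on receptors of neighbouring cells. Kinases bound to the receptors switch on transcription factors, which enter the nucleus and turn on a large set of antiviral genes. Irf7 raises the production of interferon itself, Mx proteins are dynamin-like GTPases that trap viral components, Rsad2 (viperin) makes a nucleotide analogue that stops viral RNA synthesis, and Isg15 is a ubiquitin-like protein joined to other proteins. Zebrafish hold several mx genes. In the zebrafish RefSeq gene table of assembly GRCz12tu, mxa and mxb are neighbours, as are mxc and mxe.

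All embryos were wild type, in every group, and were kept in the exposure solution between 96 and 120 h after fertilisation (24 h). RNA came from pools of 10 whole embryos, and 1 pool gave 1 library. The exposure solutions came from organic extracts of the filters, made with a mixture of dichloromethane and methanol and stored in methanol; the solvent given to the vehicle embryos is not named in the sources used here. The exposed groups were airport filters 44, 48 and 54 from Barcelona (1 pool each; filter 54 from the warm season, the other two from the cold season), harbour filters 32 (1 pool), 36 and 38 (4 pools each) and road filters 26, 28 (4 pools each) and 30 (1 pool) from Barcelona in the cold season, and subway filter 80 from Valencia (3 pools). The controls were an extract of a mock filter (3 pools) and the vehicle (6 pools). Pools of a filter repeat the exposure to that extract and not the sampling of the air, and the dose per pool is not given in the sources used here.

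The libraries were sequenced in separate rounds. The first held 15 libraries with 18448718 to 51854033 counts in all, among them replicate 1 of each harbour and road filter, the airport pools, the mock filter pools and vehicle 1 to 3. The second held 18 libraries with 19454977 to 37020687 counts, among them replicates 2 to 4 of harbour filters 36 and 38 and road filters 26 and 28, the subway pools and vehicle 4 to 6. Uniquely mapped reads made up 71.7 to 77.1% in the first round and 78.7 to 79.5% in the second, so tests were made within a round where the design allowed it. Organ markers of a whole embryo (liver, muscle, lens and others) were detected in every library, with 0 of 12 at 0. Because the RNA is from whole embryos, fewer cells of a type and less RNA per cell cannot be told apart. Levels are counts scaled to library size by TMM (CPM), which are not per length, so they are compared between libraries and not between genes. Counts of the mx genes and of stat1a and stat1b are uncertain as single genes where the counting, whose program is not given in the sources used here, could split reads between close copies.

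**Figure D1:**
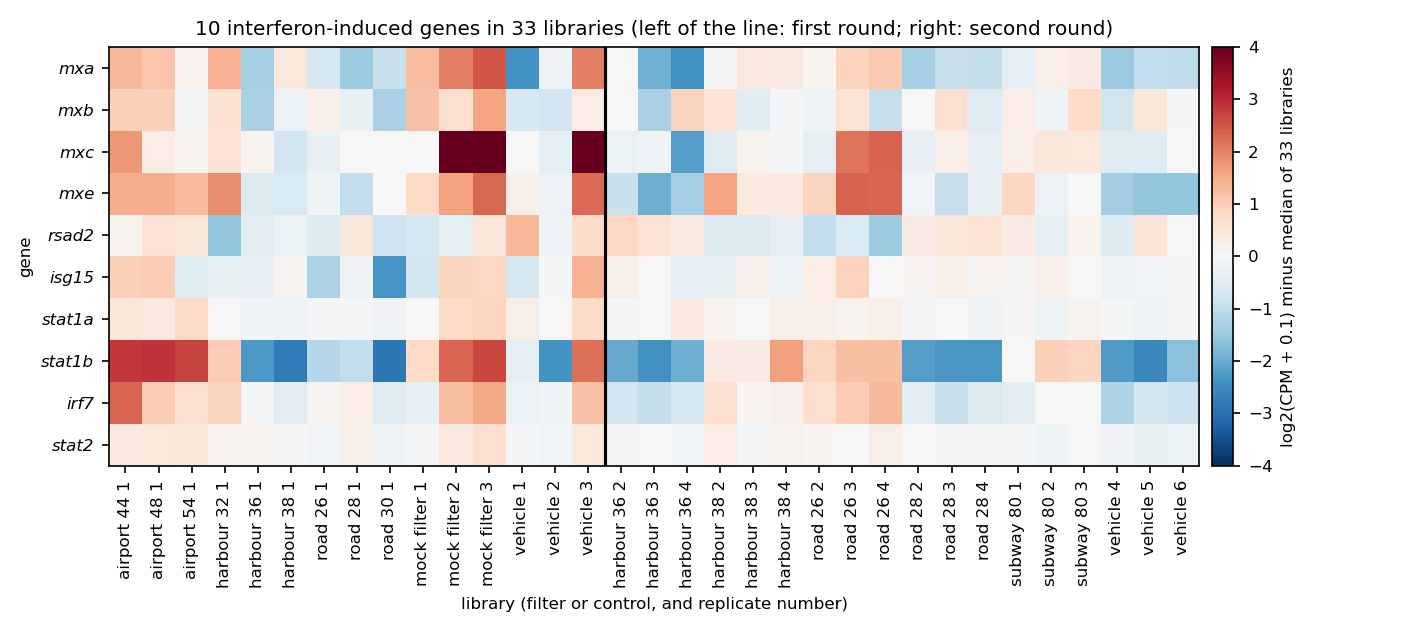
Levels of the 10 genes (vertical axis) in the 33 libraries (horizontal axis), as log2(CPM + 0.1) minus the gene's median over all libraries; red is above and blue below the median, the colour scale ends at 4 on either side, and the line parts the first from the second sequencing round. The mxc tiles of mock filter 2, mock filter 3 and vehicle 3 lie beyond the scale, and stat1b is darkest red in the airport pools.

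Among the Mx genes, mxc had 58.9 and 64.3 CPM in mock filter 2 and mock filter 3 and 81.6 CPM in vehicle 3. In the other control pools it had 1.496 CPM in mock filter 1, and 1.49, 1.15, 1.06, 1.04 and 1.48 CPM in vehicle 1, 2, 4, 5 and 6. No exposed pool came near the 3 high control pools: the next highest mxc levels were 8.17 CPM in road filter 26 replicate 4, 7.13 CPM in road filter 26 replicate 3 and 5.27 CPM in airport filter 44. The subway pools had 1.85, 2.11 and 2.05 CPM of mxc. In the harbour pools mxc ran from 0.251 to 2.28 CPM, with a median of 1.34 CPM (n = 9), which overlaps the low control pools.

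Its neighbour mxe was also among the highest 6 of 33 libraries in the 3 high control pools, but other pools matched them. mxe reached 1.90 and 1.84 CPM in road filter 26 replicates 3 and 4, above the 1.09 and 1.80 CPM of mock filter 2 and 3 and about level with the 1.78 CPM of vehicle 3. The airport pools had 0.968, 0.964 and 0.831 CPM and harbour filter 32 had 1.32 CPM. In vehicle 4, 5 and 6 a single mxe count was found in each library (0.0483, 0.0346 and 0.0330 CPM), against 0.344 and 0.230 CPM in vehicle 1 and 2. The mxe levels of the first-round and second-round vehicle pools therefore did not overlap. Over the 33 libraries Pearson's r of log2 CPM was 0.66 between mxc and mxe, 0.72 between mxa and mxc and 0.79 between mxa and mxe, as a description of pools that share rounds, controls and extracts. No mxe count was found in harbour filter 36 replicate 3, where 3 counts would be 0.126 CPM.

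For mxa the highest levels were 2.09 and 2.90 CPM in mock filter 2 and 3 and 2.09 CPM in vehicle 3, with 1.16 CPM in mock filter 1. Airport filters 44, 48 and 54 had 1.24, 1.07 and 0.495 CPM and harbour filter 32 had 1.32 CPM. The remaining vehicle pools ran from 0 counts in vehicle 1 (3 counts would be 0.172 CPM) to 0.367 CPM in vehicle 2. mxb was barely detected, with 0 to 15 counts per library and a highest level of 0.629 CPM in mock filter 3. It did not pass the filter on low counts in any comparison, so the tests below cover 9 of the 10 genes. Without that filter its adjusted p in edgeR ran from 0.282 to 1 over the 10 comparisons.

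rsad2, a textbook interferon response gene in fish, was near the detection floor in every library, at 1 to 25 counts. It had 0.238 and 0.503 CPM in mock filter 2 and 3 and 0.611 CPM in vehicle 3, and its highest level was 0.974 CPM in vehicle 1. The control pools with the highest mxc thus did not stand apart in rsad2. isg15 had 3.56 and 3.40 CPM in mock filter 2 and 3 and 5.15 CPM in vehicle 3, against 1.08 CPM in mock filter 1 and 1.15 to 1.95 CPM in the other vehicle pools. Airport filters 44 and 48 (3.71 and 3.91 CPM) and road filter 26 replicate 3 (3.62 CPM) were as high in isg15 as the mock filter pools 2 and 3, and airport filter 54 was low at 1.29 CPM.

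Among the signal transducers, stat1b was highest in the airport pools. It had 27.6, 29.2 and 25.5 CPM in airport filters 44, 48 and 54, against 6.77, 19.7 and 24.7 CPM in mock filter 1, 2 and 3 and 18.1 CPM in vehicle 3. In vehicle 1, 2, 4, 5 and 6 it had 2.98, 0.643, 0.724, 0.554 and 1.12 CPM. The airport pools were above every other library in stat1b, while airport filters 48 and 54 had only 1.87 and 1.62 CPM of mxc. High stat1b thus occurred both with high mxc (mock filter 2 and 3, vehicle 3) and with low mxc (airport filters 48 and 54). Over all 33 libraries Pearson's r of log2 CPM between mxc and stat1b was 0.61, and over the 18 second-round libraries 0.54, as a description of pools that share rounds, controls and extracts.

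**Figure D2:**
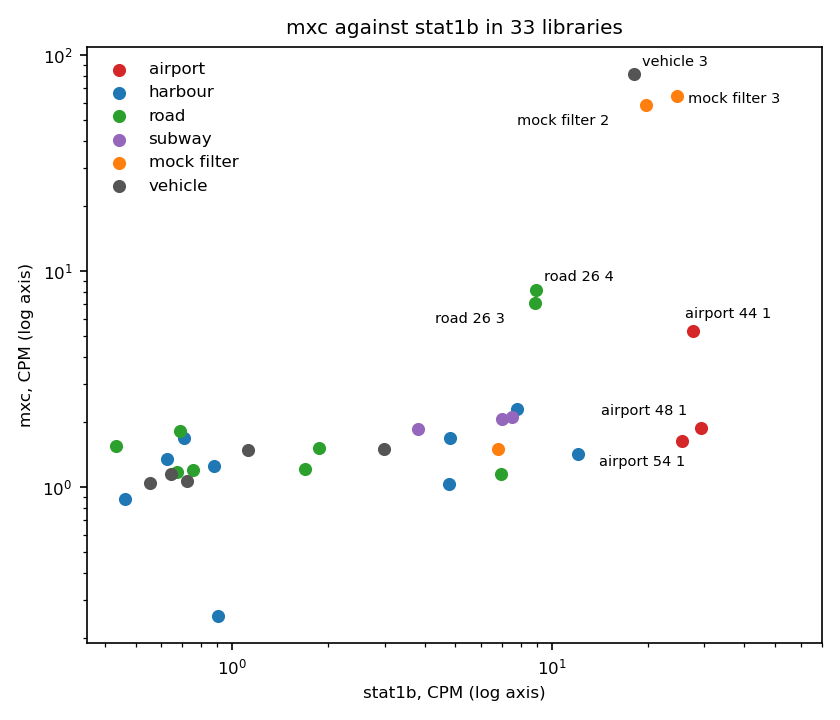
mxc (vertical axis, CPM, log axis) against stat1b (horizontal axis, CPM, log axis); each point is 1 of 33 libraries, coloured by site or control. Mock filter 2, mock filter 3 and vehicle 3 lie above 50 CPM of mxc, and the airport pools lie at 25.5 to 29.2 CPM of stat1b with 1.62 to 5.27 CPM of mxc.

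irf7 was highest at 15.8 CPM in airport filter 44, followed by 9.02 CPM in mock filter 3, 7.78 CPM in road filter 26 replicate 4, 7.27 CPM in mock filter 2 and 7.08 CPM in vehicle 3. The vehicle pools other than vehicle 3 ran from 1.25 to 2.75 CPM. irf7 and stat1b followed each other more closely than mxc and stat1b did, with a Pearson's r of 0.84 over the 33 libraries and 0.85 over the 18 second-round libraries, again a description. stat1a and stat2 moved over a narrow range. stat1a had 208 and 220 CPM in mock filter 2 and 3 and 201 CPM in vehicle 3, with 203 CPM in airport filter 54 and 105 to 163 CPM in all other libraries. stat2 had 67.6 and 81.0 CPM in mock filter 2 and 3 and 67.8 CPM in vehicle 3, with 66.4 to 71.6 CPM in the airport pools and 41.2 to 63.0 CPM elsewhere.

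The 3 high control pools differed from the other controls in more than the 10 genes. irf1b, a transcription factor of the interferon response, had 85.3 and 93.5 CPM in mock filter 2 and 3 and 101 CPM in vehicle 3, against 18.04 CPM in mock filter 1 and 3.28 to 3.76 CPM in the other vehicle pools. irf9, the Stat partner, had 26.7 and 29.5 CPM in mock filter 2 and 3 and 27.4 CPM in vehicle 3, against 12.8 CPM in mock filter 1 and 6.65 to 10.2 CPM in the other vehicle pools. The interferon genes themselves were at or near 0: over ifnphi1, ifnphi2, ifnphi3, ifnphi4, ifng1 and ifng1r the highest level in mock filter 2, mock filter 3 and vehicle 3 was 0.294 CPM (ifnphi1, mock filter 3), and ifng1 was at 0 in all 3.

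Single leukocyte markers were also high in these pools, though their summed level did not separate them from mock filter 1. marco, a macrophage scavenger receptor, had 25.0 and 23.9 CPM in mock filter 2 and 3 and 26.3 CPM in vehicle 3, against 5.53 CPM in mock filter 1 and 3.32 to 6.01 CPM in the other vehicle pools. The pan-leukocyte gene ptprc had 24.1 and 25.8 CPM in mock filter 2 and 3 and 26.3 CPM in vehicle 3, against 11.4 CPM in mock filter 1 and 8.35 to 9.96 CPM in the other vehicle pools. Over 17 detected leukocyte markers the summed level was 979 to 1119 CPM in the 3 pools, 1086 CPM in mock filter 1 and 399 to 907 CPM in the other vehicle pools, a sum in which cpa5 (mast cells) alone had 254 to 880 CPM in the controls. cd8a, a T cell marker, was at 0 in the 3 pools. The part of leukocytes in the levels of the 10 genes was not tested.

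Labels and quality values of the 3 pools were set beside those of the other first-round controls. Mock filter 2 and 3 share the number 3 in their titles and mock filter 1 carries the number 2, while vehicle 3 carries a 7 and vehicle 1 and 2 carry a 4 and a 5, and these numbers are not explained in the sources used here. Their part in the levels was not tested. The share of duplicate reads was 18.4 and 17.3% in mock filter 2 and 3 and 30.2% in vehicle 3, against 31.1% in mock filter 1 and 19.5 and 30.9% in vehicle 1 and 2. All of them were sequenced in the first round.

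**Figure D3:**
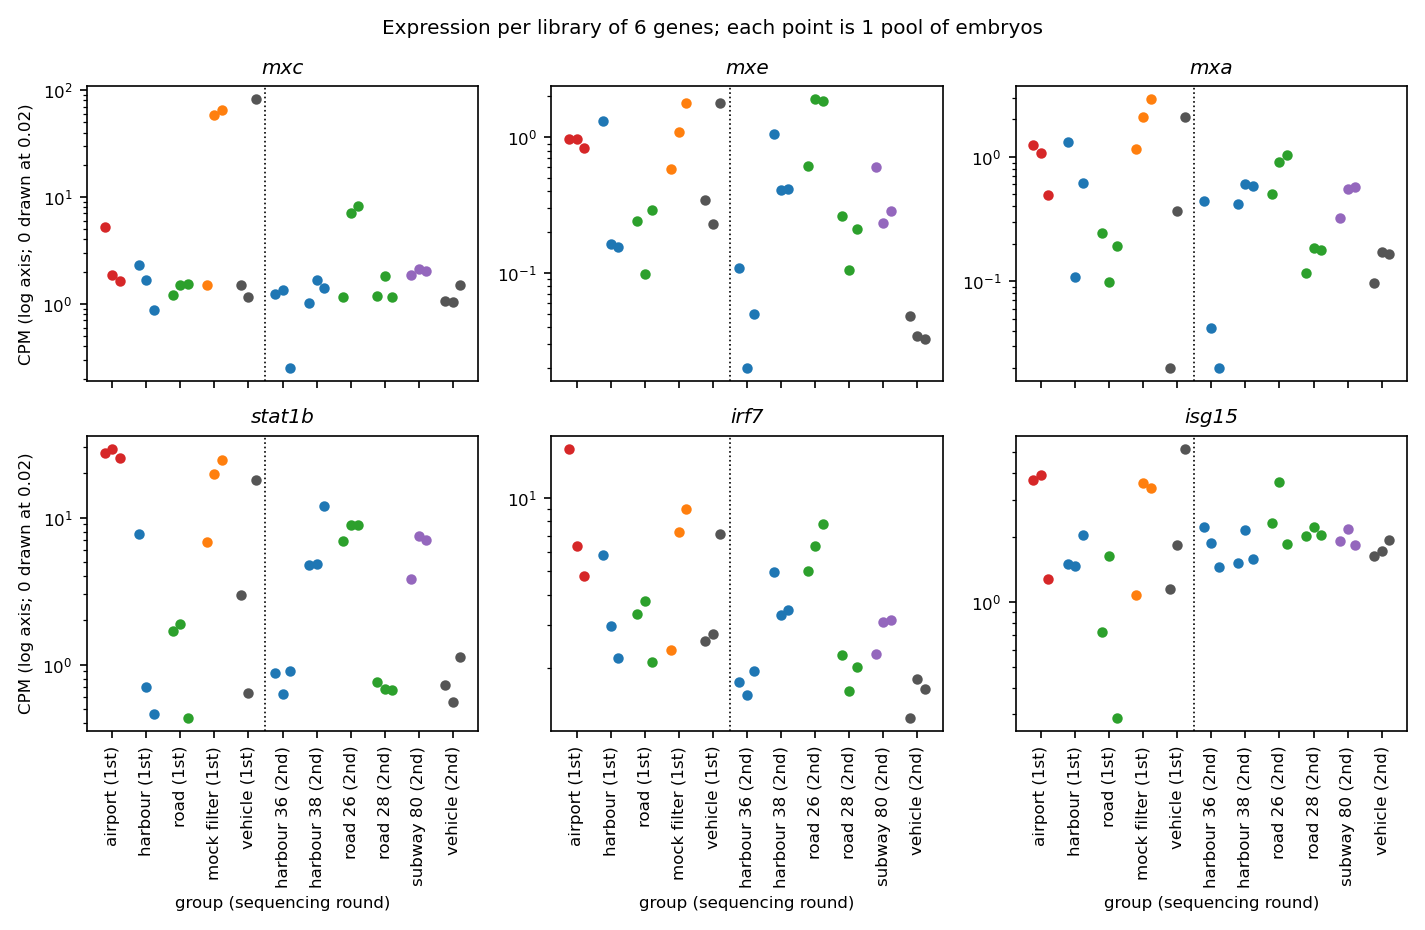
Levels of 6 of the genes in CPM (vertical axes, log scale; 0 drawn at 0.02), with 1 point per pool and groups of the first (1st) and second (2nd) sequencing round along the horizontal axis. In the second round stat1b, irf7, mxa and mxe of harbour filter 38 and road filter 26 lie above the vehicle pools, while harbour filter 36 and road filter 28 lie among or close to them for stat1b and irf7.

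In the second round, road filter 26 gave the most changes. Against vehicle 4 to 6, whose low levels were known when the genes were chosen, 6 of the 9 tested genes rose and rsad2 fell, 7 in all by the adjusted p of edgeR's quasi-likelihood test, where 32.4% of all 21856 genes tested passed the threshold and 17.0% passed it as higher. Since vehicle levels were in view in the choice, the counts against the vehicle here and below stand beside these shares as a description, and the comparisons between filters hold no control pool. Their median log2 change was 1.99, against -0.01 over all genes tested. stat1b had 6.95, 8.85 and 8.93 CPM in road filter 26 replicates 2 to 4, against 0.724, 0.554 and 1.12 CPM in vehicle 4 to 6, a log2 fold change of 3.33 ± 0.36 (SE) with an adjusted p of 6.66e-07. irf7 had 5.01, 6.33 and 7.78 CPM in road filter 26, against 1.25, 1.80 and 1.65 CPM in the vehicle, a log2 fold change of 1.99 ± 0.22 with an adjusted p of 6.80e-07. Neither gene's groups overlapped.

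Of the 4 Mx genes mxe, mxa and mxc rose as well, and mxb, with 12 counts in road filter 26 and 12 in the vehicle, was too low to be tested. mxe had 0.618, 1.90 and 1.84 CPM in road filter 26, 134 counts in all against 3 in the vehicle pools, a ratio of 37.8 with a 95% counting interval of 12.7 to 186 and an adjusted p (edgeR) of 2.01e-05. In the second-round fit mxe passed the filter on low counts only through pools of road filter 26, harbour filter 38 and subway filter 80, where it was high. mxa passed it through the same groups and a pool of harbour filter 36. rsad2 passed it only through pools of harbour filter 36, road filter 28, subway filter 80 and vehicle 5. It did so through no pool of road filter 26 or harbour filter 38, where it was lower. The mxe, mxa and rsad2 calls here and below are therefore a description. mxa had 0.501, 0.915 and 1.03 CPM in road filter 26, against 0.0965, 0.173 and 0.165 CPM in the vehicle, a log2 fold change of 2.40 ± 0.60 with an adjusted p of 0.00397. mxc had 1.15, 7.13 and 8.17 CPM in road filter 26, so that replicates 3 and 4 were high and replicate 2 lay within the 1.04 to 1.48 CPM of the vehicle. Its log2 fold change was 2.17 ± 0.49 with an adjusted p of 0.00186 in edgeR, and its groups overlapped.

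stat2 had 54.3, 52.0 and 60.9 CPM in road filter 26, against 46.4, 41.2 and 42.7 CPM in the vehicle, a log2 fold change of 0.35 ± 0.09 with an adjusted p of 0.00353. rsad2 went the other way, with 0.118, 0.183 and 0.0603 CPM in road filter 26 (11 counts) against 0.193, 0.519 and 0.330 CPM in the vehicle (29 counts), a log2 fold change of -1.58 ± 0.49 with an adjusted p of 0.0176. That call was lost without road filter 26 replicate 4 (-1.26) and without vehicle 5 (-1.18). isg15 (0.53 ± 0.23, adjusted p 0.0855) and stat1a (0.26 ± 0.10, adjusted p 0.063) did not pass, though isg15 passed without road filter 26 replicate 4 (0.72).

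Harbour filter 38 gave a similar but shorter set of calls against the same vehicle pools. Of the 9 genes 5 rose and 0 fell (edgeR), against 28.8% of all genes past the threshold and 15.3% past it as higher, and the median log2 change was 0.37, against -0.01 over all genes tested. stat1b had 4.79, 4.79 and 12.0 CPM in harbour filter 38 replicates 2 to 4, a log2 fold change of 3.16 ± 0.36 with an adjusted p of 1.97e-06. irf7 had 4.98, 3.30 and 3.48 CPM, a log2 fold change of 1.30 ± 0.22 with an adjusted p of 1.59e-04. Both lay above all vehicle pools. mxe had 1.06, 0.412 and 0.413 CPM, 51 counts against 3, a ratio of 16.6 (95% counting interval 5.35 to 82.9) with an adjusted p of 0.00101.

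stat2 rose by 0.37 ± 0.09 in harbour filter 38 (63.0, 47.9 and 56.7 CPM; adjusted p 0.00302, edgeR). mxa had 0.418, 0.599 and 0.585 CPM, a log2 fold change of 1.81 ± 0.63 with an adjusted p of 0.036. The mxa call was lost when harbour filter 38 replicate 3 or 4, or any single vehicle pool, was left out (log2 fold changes 1.64 to 1.95). mxc had 1.03, 1.69 and 1.41 CPM in harbour filter 38, overlapping the vehicle pools, and did not pass (0.19 ± 0.55, adjusted p 0.835).

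Harbour filter 36 and road filter 28 gave no call for any of the 9 genes. For harbour filter 36 minus vehicle, 0 passed in edgeR and 0 in DESeq2, where 0.389% of all genes passed in edgeR. At an unadjusted p under 0.05 in edgeR was 1 of the 9 (stat1a), beside 2319 of all 21856 genes. stat1a had 117, 120 and 158 CPM in harbour filter 36 replicates 2 to 4. Replicate 4 belongs to library series 38, unlike the vehicle pools. stat1b had 0.878, 0.628 and 0.904 CPM in harbour filter 36 replicates 2 to 4, among the vehicle values. For road filter 28 minus vehicle, 0 passed in edgeR and 0 in DESeq2, where 0.165% of all genes passed in edgeR. At an unadjusted p under 0.05 in edgeR were 2 of the 9 (mxe and stat2), beside 1320 of all 21856 genes. mxe had 0.262, 0.105 and 0.212 CPM in road filter 28 replicates 2 to 4, all above the vehicle pools: 19 counts against 3, a ratio of 5.04 with a 95% counting interval of 1.48 to 26.6, and an adjusted p of 0.783.

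For the subway filter 3 of the 9 genes rose and 0 fell against the vehicle (edgeR), where 12.9% of all genes passed and 6.84% passed as higher. stat1b had 3.82, 7.50 and 7.01 CPM in the subway pools, all above the vehicle, a log2 fold change of 2.91 ± 0.37 with an adjusted p of 2.59e-05. irf7 had 2.29, 3.09 and 3.16 CPM, a log2 fold change of 0.84 ± 0.23 with an adjusted p of 0.0196. mxe had 0.604, 0.234 and 0.287 CPM, 28 counts against 3, a ratio of 9.97 (95% counting interval 3.08 to 51.2) with an adjusted p of 0.0219. The irf7 call was lost without subway pool 2 (0.78), subway pool 3 (0.76) or vehicle 4 (0.72). The mxe call was lost without subway pool 1 or vehicle 5 or 6, with fitted log2 values of 2.65, 3.11 and 3.09 against 3.17 with all pools, all of which depend on the prior count. The library numbers of all subway pools belong to a series (38) that holds no vehicle pool and 1 other pool, harbour filter 36 replicate 4. That pool had 0.904 CPM of stat1b, 1.96 CPM of irf7 and 0.0502 CPM of mxe. With all 33 libraries in the fit and the series as covariate, where the term for series 38 rests on that pool, 0 of the 9 passed and stat1b was at 0.69 ± 2.18.

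All of these comparisons share vehicle 4 to 6. All 33 libraries were also fitted with the library series as covariate. The first-round pools then entered, among them vehicle 3 and replicate 1 of road filter 26 and of harbour filter 38. In that fit 2 members (irf7 and rsad2) passed for road filter 26 and 0 for harbour filter 38. The mxc change for road filter 26 was -0.44 ± 1.25. When mock filter 2, mock filter 3 and vehicle 3 were left out of that fit, 6 and 4 members passed for the 2 filters. For road filter 26 mxc was then at 1.72 ± 0.43. stat1b was at 2.40 ± 0.60, against 3.33 ± 0.36 in the second-round fit.

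**Figure D4:**
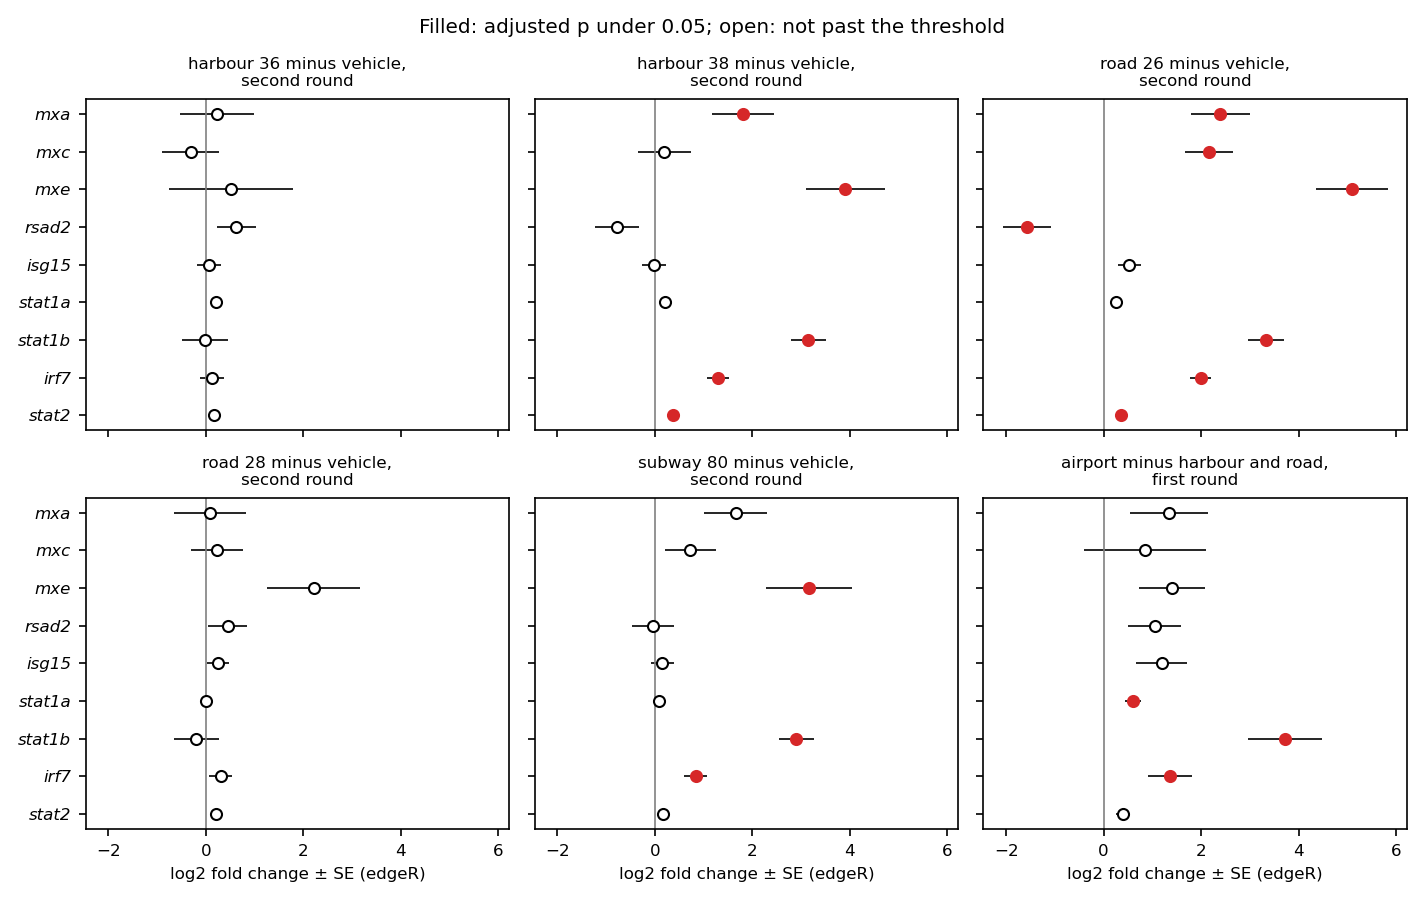
Log2 fold changes (horizontal axis, ± SE, edgeR) of the 9 tested genes (vertical axis) in 5 comparisons with the second-round vehicle pools and in airport minus harbour and road; filled points have an adjusted p under 0.05. stat1b lies at 2.91 to 3.33 for harbour filter 38, road filter 26 and subway filter 80, and at -0.20 to -0.02 for harbour filter 36 and road filter 28; the wide mxe bars rest on 3 vehicle counts.

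The same genes set the filters of one site apart, in comparisons that hold no control pool. Between road filters 26 and 28, 6 of the 9 genes differed, 5 of them higher in road filter 26, where 26.6% of all genes passed and 14.3% passed as higher. stat1b had 6.95, 8.85 and 8.93 CPM in road filter 26, against 0.758, 0.686 and 0.673 CPM in road filter 28, a log2 fold change of 3.53 ± 0.36 with an adjusted p (edgeR) of 3.90e-07. irf7 differed by 1.69 ± 0.21, mxe by 2.89 ± 0.54, mxa by 2.31 ± 0.57 and mxc by 1.95 ± 0.47, with adjusted p of 4.16e-06 to 0.00433. rsad2 was lower in road filter 26 (11 counts, against 49 in road filter 28), at -2.02 ± 0.46 with an adjusted p of 0.00243. The rsad2, mxe and mxa calls here are a description, since each gene passed the filter on low counts through groups where it was high. Each of the 6 calls was kept when any single pool was left out.

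Between harbour filters 36 and 38, 4 of the 9 genes differed, 3 of them lower in harbour filter 36, where 23.9% of all genes passed and 12.6% passed as lower. Replicate 4 of harbour filter 36 belongs to library series 38, and the other pools compared to series 37. stat1b had 0.878, 0.628 and 0.904 CPM in harbour filter 36, against 4.79, 4.79 and 12.0 CPM in harbour filter 38, a log2 fold change of -3.18 ± 0.37 with an adjusted p (edgeR) of 4.24e-06. irf7 differed by -1.17 ± 0.22 (adjusted p 0.000675) and mxe by -3.39 ± 0.78 (adjusted p 0.0031). rsad2 was higher in harbour filter 36, with 40 counts against 17 in harbour filter 38 (1.4 ± 0.44, adjusted p 0.0242). That call was lost without harbour filter 36 replicate 2 or harbour filter 38 replicate 2 or 3 (1.26 to 1.36), and with a replicate block.

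Road filter 26 against harbour filter 38 gave 0 calls among the 9 genes in edgeR and 0 in DESeq2, where 0.814% of all genes passed in edgeR. At an unadjusted p under 0.05 in edgeR were 4 of the 9, beside 1660 of all 21856 genes. mxc was the gene nearest to a call, with 1.15, 7.13 and 8.17 CPM in road filter 26 against 1.03, 1.69 and 1.41 CPM in harbour filter 38 (1.97 ± 0.48, adjusted p 0.0638), and it passed without road filter 26 replicate 2 (2.46). The other 3 were irf7 (0.69 ± 0.20), mxe (1.19 ± 0.47) and isg15 (0.55 ± 0.23), with adjusted p of 0.161 to 0.552. stat1b differed by 0.18 ± 0.28 between these filters.

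In the first round the airport pools were compared with the 6 harbour and road pools, each of them a single pool of a filter. Of the 9 genes 3 were higher in the airport pools and 0 lower, where 20.6% of all 21608 genes passed and 10.3% passed as higher. stat1b had 27.6, 29.2 and 25.5 CPM in the airport pools, against 7.77, 0.706 and 0.464 CPM in harbour filters 32, 36 and 38 and 1.69, 1.87 and 0.434 CPM in road filters 26, 28 and 30. The groups did not overlap, and the log2 fold change was 3.73 ± 0.76 with an adjusted p (edgeR) of 0.00372. This call was kept without any single pool.

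stat1a had 163, 157 and 203 CPM in the airport pools, against 108 to 121 CPM in the harbour and road pools (0.61 ± 0.17, adjusted p 0.0191, edgeR), and the call was lost without airport filter 54 (0.51). irf7 had 15.8, 6.32 and 4.79 CPM, against 2.12 to 5.85 CPM, with overlap (1.37 ± 0.45, adjusted p 0.0417). The irf7 call was lost without airport filter 44 (0.71), and also without any one of harbour filters 36 and 38 and road filters 26, 28 and 30, where the log2 change stayed at 1.24 to 1.49. mxc did not pass (0.85 ± 1.24, adjusted p 0.677, edgeR), in a fit that held the 3 high control pools. Without them, an alternative chosen after seeing the data, it was at 0.92 ± 0.38 (adjusted p 0.108). stat2 did not pass (0.39 ± 0.14, adjusted p 0.066), though its groups did not overlap, at 66.4 to 71.6 against 46.3 to 58.3 CPM. It passed without the 3 pools (0.41 ± 0.10), in DESeq2 (0.41) and with the compared groups alone (0.39). Airport minus mock filter or vehicle was not tested, since the 3 high control pools lie in that round.

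The first-round pool of a filter lay below, within or above its second-round pools in stat1b, depending on the filter. In road filter 26, stat1b had 1.69 CPM in the first-round pool, against 6.95 to 8.93 CPM in the second round. In harbour filter 38 it had 0.464 CPM in the first-round pool, against 4.79 to 12.0 CPM in the second round. In harbour filter 36 it had 0.706 CPM in the first-round pool, within the 0.628 to 0.904 CPM of the second round, and in road filter 28 it had 1.87 CPM, above the 0.673 to 0.758 CPM of the second round. Over harbour filters 36 and 38 and road filters 26 and 28, first minus second round gave 0 calls among the 9 genes in edgeR and 0 in DESeq2. Of all 21676 genes 21.0% passed in edgeR. At an unadjusted p under 0.05 in edgeR were 2 of the 9, beside 7701 of all 21676 genes. stat1b was at -1.03 ± 0.59 (adjusted p 0.218) and passed without the first-round pool of road filter 28 (-2.34).

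Other genes of the interferon system were taken as 6 lists with 82 tested genes. Against the vehicle 34 of them rose and 7 fell for road filter 26 (50% in all, against 32.4% of all genes), 23 rose and 8 fell for harbour filter 38 (37.8%, against 28.8%), and 21 rose and 5 fell for the subway filter (31.7%, against 12.9%). Their median log2 changes were 0.39, 0.25 and 0.25 for these filters, against -0.01 to 0 over all genes. No gene of the lists passed for harbour filter 36 or road filter 28, with medians of 0.04 and 0.02. Of the 12 whole embryo organ markers 2 rose and 5 fell for road filter 26 (58.3%), 3 rose and 4 fell for harbour filter 38 (58.3%), and 0 rose and 3 fell for the subway filter (25%).

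Sensors and adaptors of viral nucleic acid held 8 genes that rose of 13 tested for road filter 26, 7 for harbour filter 38 and 2 for the subway filter, with 0 that fell. These are 61.5, 53.8 and 15.4%, against 32.4, 28.8 and 12.9% of all genes. The subway share was near that of all genes. sting1, an adaptor for cytosolic DNA sensing, averaged 3.59 ± 0.18 CPM in road filter 26 and 2.63 ± 0.34 CPM in harbour filter 38, against 1.02 ± 0.21 CPM in the vehicle (SD, n = 3 each; adjusted p in edgeR 4.61e-06 and 1.54e-04). myd88, the adaptor of Toll-like receptors, averaged 14.0 ± 1.3 CPM in road filter 26 and 7.54 ± 1.4 CPM in the vehicle (adjusted p 1.57e-05 in edgeR).

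Regulatory factors and Jak-Stat partners held 7 that rose and 1 that fell of 16 for road filter 26, and 8 and 1 for both harbour filter 38 and the subway filter. These are 50, 56.2 and 56.2%, against 32.4, 28.8 and 12.9% of all genes. irf1b averaged 22.1 ± 4.3 CPM in road filter 26, 14.4 ± 2.3 CPM in harbour filter 38 and 15.1 ± 2.3 CPM in the subway pools, against 3.45 ± 0.16 CPM in the vehicle, with log2 fold changes of 2.67, 2.06 and 2.12 (SE 0.16 each; adjusted p in edgeR 3.43e-10, 2.03e-08 and 5.15e-08). stat3, which also carries interleukin signals, averaged 70.7 ± 9.4, 55.0 ± 8.7 and 41.2 ± 2.0 CPM in these groups, against 25.3 ± 1.3 CPM in the vehicle. jak1, a kinase of many cytokine receptors, averaged 247 ± 12, 207 ± 12 and 167 ± 1.6 CPM, against 139 ± 1.2 CPM in the vehicle. All 3 of these genes passed the test for all 3 filters.

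Among 29 other antiviral effectors 10 rose and 3 fell for road filter 26 (44.8%, against 32.4% of all genes), and 5 rose and 1 fell for the subway filter (20.7%, against 12.9%). For harbour filter 38, 5 rose and 3 fell (27.6%), near the 28.8% of all genes. ifitm1, a membrane protein that blocks viral entry, averaged 83.7 ± 13 CPM in road filter 26, 59.3 ± 3.4 CPM in harbour filter 38 and 40.7 ± 1.2 CPM in the subway pools, against 22.4 ± 1.2 CPM in the vehicle (adjusted p in edgeR 6.61e-11, 2.46e-09 and 5.88e-06). mxf, a further Mx gene, averaged 1.66 ± 1.1 CPM in road filter 26 and 0.147 ± 0.10 CPM in the vehicle (adjusted p 2.22e-04 in edgeR). The vehicle pools were too low to carry mxf past the filter on low counts, so this call is a description, as for mxe and mxa. ifitm1 differed from the Mx genes in the high control pools. It had 29.9 and 30.7 CPM in mock filter 2 and 3 and 23.2 CPM in vehicle 3, within or just above the 21.4 to 30.02 CPM of the other controls.

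Antigen presentation genes moved in both directions: 5 rose and 3 fell of 17 for road filter 26 and for the subway filter, and 1 rose and 3 fell for harbour filter 38. These are 47.1% for road filter 26 and the subway filter, and 23.5% for harbour filter 38, below its 28.8% of all genes. cd74a and cd74b, chaperones of class II antigen presentation, fell for these 3 filters. cd74b averaged 0.488 ± 0.15, 0.615 ± 0.13 and 0.290 ± 0.079 CPM in the road filter 26, subway and harbour filter 38 pools, against 1.91 ± 0.36 CPM in the vehicle. Of 4 tested interferon-induced chemokines 3 rose for road filter 26 and 1 for each of harbour filter 38 and the subway filter. These are 75, 25 and 25%, against 32.4, 28.8 and 12.9% of all genes. Of the interferon and receptor genes 3 could be tested, and the receptor chain crfb12 rose for road filter 26 (15.3 ± 1.1, against 10.5 ± 0.34 CPM in the vehicle) and harbour filter 38 (15.2 ± 0.85 CPM), and the receptor chain crfb2 fell for harbour filter 38 (2.25 ± 0.071, against 3.78 ± 0.89 CPM). The interferon genes ifnphi1 to ifnphi4 and ifng1 had at most 0.508 CPM in any library (ifnphi3, subway pool 2).

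**Figure D5:**
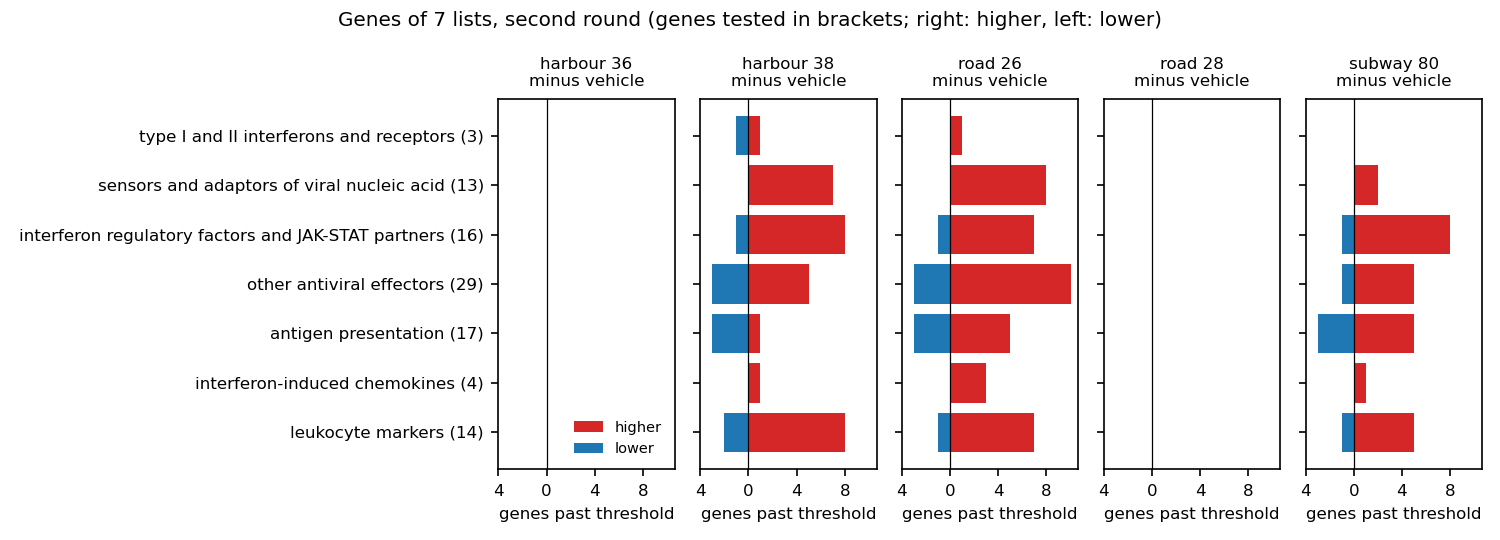
Number of genes that rose (right of 0) or fell (left of 0) at an adjusted p under 0.05 (horizontal axes) in 6 lists of the interferon system and the leukocyte markers (vertical axis; genes tested in brackets), for each second-round filter minus vehicle. Harbour filter 36 and road filter 28 have no gene past the threshold in any list.

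Leukocyte and inflammation genes moved beside the interferon genes in these pools. Of 14 tested leukocyte markers 7 rose and 1 fell for road filter 26, 8 rose and 2 fell for harbour filter 38, and 5 rose and 1 fell for the subway filter. These are 57.1, 71.4 and 42.9%, against 32.4, 28.8 and 12.9% of all genes. mpeg1.1, a macrophage gene, averaged 13.7 ± 1.2, 15.1 ± 1.2 and 14.1 ± 1.9 CPM in these groups, against 7.84 ± 1.2 CPM in the vehicle, and rag1, a gene of developing lymphocytes, averaged 6.33 ± 0.35, 6.47 ± 1.4 and 8.19 ± 0.37 CPM, against 12.5 ± 0.57 CPM. The summed level of the 17 markers was 613 to 672 CPM in road filter 26, 720 to 1014 CPM in harbour filter 38 and 596 to 778 CPM in the subway pools, against 399 to 840 CPM in the vehicle. It overlapped the vehicle in each.

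Of 16 listed inflammation genes 13 were tested. All 13 rose for road filter 26, 5 rose for harbour filter 38, and 3 rose and 2 fell for the subway filter. These are 100, 38.5 and 38.5%, against 32.4, 28.8 and 12.9% of all genes. A gene rare in the vehicle can pass the filter on low counts only through groups where it is high. Which of the 13 did so was not examined, and the list was chosen with earlier results known. The counts of this list are therefore a description. il1b, an inflammatory cytokine, had 9.80, 92.4 and 72.6 CPM in road filter 26 replicates 2 to 4, against 0.483, 0.623 and 0.858 CPM in vehicle 4 to 6. Replicates 3 and 4 were thus high in il1b as they were in mxc, and replicate 2 was lower in both. In airport minus harbour and road all 13 were also higher, where 20.6% of all genes passed. There il1b was at 170, 3.00 and 4.12 CPM in airport filters 44, 48 and 54. The part of leukocytes and of inflammation in the changes of the 10 genes was not tested.

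The genes whose levels were most like the 10 genes were ranked by Pearson's r with the mean of their standardised log2 CPM, over 16845 genes with a symbol and enough reads. Over all 33 libraries the list was led by irf8 (r = 0.93), marco (0.92), PLXNC1 (0.91), lygl1 (0.91) and the complement factor cfb (0.90). The rest of the first 20 were erap2, cfbl, LECT2, TYK2, cbln11, ogfr1, gja13.2, c3a.1, xaf1, il6r, b2ml, irf9, fgl2a, gbp1 and rbck1, down to an r of 0.87. irf8, a factor of macrophage development, had 14.3 and 13.5 CPM in mock filter 2 and 3 and 11.4 CPM in vehicle 3, 7.42, 5.36 and 4.85 CPM in the airport pools, and 2.95 CPM in mock filter 1 and 1.77 to 3.04 CPM in the other vehicle pools.

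The ranking turned on the 3 high control pools. Without them, over 30 libraries, the list was led by tgoln2 (r = 0.91), uap1, crb3b, arpc5a and edem1, and it shared 0 of its first 20 genes with the list over 33 libraries, though irf8 and marco kept an r of 0.88 and 0.85. Over the 18 second-round libraries it was led by mob2a (r = 0.94), cyb5b, TYK2, cbln11, tsg101b, b3gnt7, b4galt4, hspa4a, abcb6a and crb3b. TYK2 and cbln11 stood in this list of 10 and in the first 20 over 33 libraries. These values describe pools that share extracts, vehicle pools and sequencing rounds.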

How the data were processed

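RNA-seq was made from 33 pools of whole zebrafish embryos, which the labels call replicas. The authors deposited raw counts per gene. Read alignment used BWA on GRCz11 after CASAVA, per the submitters' processing notes. Not given in the sources used here are the program that counted reads, whether it used strand, and its gene models. A deposited quality table gives read pairs and mapping shares in percent per library, per the file headers. Symbols came from the count table for 17766 genes and from a separate ID table for 5860; 1806 had none. 0 count columns lacked a sample.

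Low counts were removed with filterByExpr and libraries were scaled by TMM. Then edgeR's quasi-likelihood test (edgeR 4.0.16, limma 3.58.1, R 4.3.3) was run over all genes kept, with Benjamini-Hochberg adjustment and a threshold of 0.05. The fits kept edgeR's default prior count. A prior count of 2 was used only for the log2 CPM of the correlations and the likeness ranking. The SE of a log2 fold change is its size divided by the square root of the test's F statistic. The second-round fit held 18 libraries, airport minus harbour and road 15, and first minus second round 16. The code was tested on simulated data. Alternatives were DESeq2 1.42.0, its size factors, no filter, only the groups compared, each pool left out, a replicate block, and all 33 libraries with the series as covariate. Pools within a group differed by more than sampling noise (chi-square per degree of freedom 4.56 to 87.0 over 45 pairs). These pairs include pools of different rounds, as does the highest (road filter 26 replicates 1 and 4). Between pools of the second round the values ran from 4.56 to 29.0. The highest of these, 29.0 and 27.4, set harbour filter 36 replicate 4 against replicates 2 and 3. The other pairs of the second round reached at most 11.3. Nothing says that pools came from separate clutches, so p-values measure the spread between pools only. Intervals and floors of 3 counts cover counting error only. Same-numbered pools of paired filters correlated at -0.00285 to 0.172 in their deviations, and pools of unlike numbers at -0.153 to 0.110. For harbour filters 36 and 38 the same-numbered pools had 0.0988 to 0.168, and the others -0.0911 to -0.0207. The number used is the replicate number. Replicate 4 of harbour filter 36 has title suffix 10 and library series 38, and replicate 4 of harbour filter 38 has suffix 9 and series 37. Pools were not taken as pairs in the main fits, and a shared batch of same-numbered pools is not excluded.

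The members and gene lists were chosen with earlier results of these data known. Named were the 10 members, the 20 genes most like them over 33 libraries and 10 over the 18 second-round libraries (mean log2 CPM of at least 0, no provisional names), and up to 4 genes per list and comparison with the smallest p among those that passed; other genes were named after their values were seen.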

Additional observations from a re-analysis of the deposited data

Results flagged for a closer look

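In 9 of the 50 sets checked, each of them 1 gene in 1 group of 4 to 10 pools, a single pool lay far from the rest. The rule flags about 1 in 20 sets of like pools by chance, but these groups hold pools of both rounds and the genes share pools. Of the 9, 7 are vehicle 3, whose high levels were in view when the genes were chosen, so the count is no test. By this rule vehicle 3 stood far above the other 5 vehicle pools in 7 genes, with 2.09 CPM of mxa, 81.6 CPM of mxc, 1.78 CPM of mxe, 5.15 CPM of isg15, 18.1 CPM of stat1b, 7.08 CPM of irf7 and 67.8 CPM of stat2. It was also the highest vehicle pool in stat1a, at 201 CPM against 142 CPM in vehicle 1, without being flagged. Harbour filter 38 replicate 2 was low in mxa at 0.418 CPM, and road filter 28 replicate 1 was high in stat1b at 1.87 CPM, where the next pool had 0.758 CPM.

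Filters of the same site differed in the following genes by edgeR's test of the difference itself. Harbour filter 36 minus harbour filter 38 gave log2 values of -3.39 for mxe, 1.4 for rsad2, -3.18 for stat1b and -1.17 for irf7. Road filter 26 minus road filter 28 gave 2.31 for mxa, 1.95 for mxc, 2.89 for mxe, -2.02 for rsad2, 3.53 for stat1b and 1.69 for irf7. The mxa, mxe and rsad2 values are a description, since these genes passed the filter on low counts through groups where they were high. The causes were not tested.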

How the results depend on the processing

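Over 127 fits, 1064 values of single members kept their side of the threshold, 17 newly passed, 42 no longer passed and 1 reversed. The reversed value was mxc in road filter 26 minus vehicle, at -0.44 with all 33 libraries and the series as covariate. A change of direction was counted only where a fit passed the threshold, so values that passed in neither fit could change direction uncounted. For example, mxa in harbour filter 36 minus vehicle was at 0.23 and went down to -2.50. With DESeq2 the genes past the threshold numbered 209 (edgeR 85) for harbour filter 36 minus vehicle and 93 (edgeR 36) for road filter 28 minus vehicle. With the compared groups alone they numbered 38 for harbour filter 36 minus vehicle, 3159 (5229 in the full fit) for harbour filter 36 minus 38 and 109 (178) for road filter 26 minus harbour filter 38. With all 33 libraries they numbered 16, 2357, 3855, 20 and 22 for harbour filters 36 and 38, road filters 26 and 28 and the subway filter minus vehicle, against 85, 6298, 7083, 36 and 2820; members past it were 0 for harbour filter 38, 2 for road filter 26 and 0 for the subway filter, against 5, 7 and 3. Without mock filter 2, mock filter 3 and vehicle 3, an alternative chosen after seeing the data, that fit gave 19, 2782, 4476, 22 and 180 genes, and 0 members for the subway filter. Without the filter on low counts 1 member (mxc) passed in road filter 26 minus harbour filter 38, against 0. Leaving out mock filter 2, mock filter 3 and vehicle 3 left 0 of the 20 most similar genes in the list. The causes were not tested.

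Leaving out each pool in turn gave 26 to 107 genes and 0 members for harbour filter 36 minus vehicle, 4994 to 5770 and 4 to 5 for harbour filter 38, 5851 to 6233 and 6 to 7 for road filter 26, 25 to 45 and 0 for road filter 28, and 1781 to 2214 and 2 for the subway filter. It gave 3995 to 5279 and 3 to 4 for harbour filter 36 minus 38, 4534 to 5051 and 6 for road filter 26 minus 28, and 73 to 252 and 0 to 1 for road filter 26 minus harbour filter 38. It gave 2494 to 5233 and 2 to 4 for airport minus harbour and road, and 2180 to 5766 and 0 to 2 for first minus second round. A replicate block gave 4269 genes and 3 members for harbour filter 36 minus 38, 6420 and 7 for road filter 26 minus 28, and 188 and 0 for road filter 26 minus harbour filter 38. What a shared replicate number stands for is not given in the sources used here. Depth limits mxa, mxb, mxe and rsad2, which had at most 69, 15, 61 and 25 counts in a library.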

Other observations

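In airport minus harbour and road of the first round, 11 of 87 tested genes of the interferon lists were higher and 1 was lower (13.8%, against 20.6% of all genes, edgeR). ifit14, an interferon-induced gene with tetratricopeptide repeats, averaged 3.63 ± 1.8 CPM in the airport pools (SD, n = 3) and 0.510 ± 0.60 CPM in the harbour and road pools (n = 6), a log2 fold change of 3.73 ± 0.76 with an adjusted p of 0.00357 in edgeR. stat3 averaged 61.2 CPM in the airport pools and 30.2 CPM in the harbour and road pools, and ifitm1 81.0 and 39.7 CPM.

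The complement gene c3a.1 had 893 and 820 CPM in mock filter 2 and 3 and 887 CPM in vehicle 3, against 261 CPM in mock filter 1 and 232 and 211 CPM in vehicle 1 and 2. Exposed pools were high in c3a.1 too. It had 902, 446 and 606 CPM in airport filters 44, 48 and 54. Road filter 26 replicates 2 to 4 had 451, 662 and 632 CPM. The neutrophil gene mpx had 61.2 and 54.4 CPM in mock filter 2 and 3 and 53.6 CPM in vehicle 3, against 27.3 CPM in mock filter 1 and 12.7 and 19.6 CPM in vehicle 1 and 2.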
